A study of Mus musculus with 8 samples.

Results

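The release machinery of synaptic vesicles was described here as a set of 86 genes, taken by symbol from 18141 genes in 2 tables of single-cell counts. A gene entered the set when its symbol began with Syt, Stx, Vamp, Stxbp, Rims, Rab3 or Sv2 followed by a digit or letter, or was Snap25, Cplx1, Cplx2, Unc13a, Unc13b, Unc13c, Syn1, Syn2, Syp or Synpr, with Syt6 and Cplx3 left out. The table of one cell sort held 82 members among 17836 genes and the table of the other 84 among 15769, and 80 were in both. Unc13a, Unc13b, Unc13c and Syt8 were analysed only in the second sort, and Stx19 and Sytl3 only in the first. The rule by symbol also takes 12 genes from Rab30 to Rab39, small GTPases of other membrane routes that are not isoforms of Rab3, and the synaptotagmin-like (Sytl) genes. They are counted as members and described as groups of their own or with their family.

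Neurons release transmitter when a synaptic vesicle fuses with the plasma membrane. Vesicle-borne VAMP pairs with the membrane proteins syntaxin 1 and SNAP-25 to form the SNARE complex, complexins clamp it, and Munc18 proteins (Stxbp genes) guide its assembly. Synaptotagmins sense calcium, RIM and Munc13 proteins dock and prime vesicles at the active zone, Rab3 tethers them, and SV2, synapsins, synaptophysin and synaptoporin sit in or on the vesicle. Other syntaxins and VAMPs serve the Golgi, endosomes and plasma membrane of every cell, glia and vascular cells included, and in the first postnatal week cortical synapses are still being built.

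Cells came from frontal isocortex of mice at postnatal day 7. They were sorted by flow cytometry for 1 of 2 reporters, a Drd1a-tdTomato transgene (D1Tom below) or a golli-τ-eGFP transgene (GTE below), and profiled by droplet-based 3' sequencing. All mice of both genotypes carried floxed Foxp2 on both alleles on a C57BL/6J background. Controls had no Cre, and the conditional knockouts (cKO) also carried Emx1-Cre, which acts in the progenitors of cortical excitatory neurons and glia but not in those of cortical interneurons. Each sort had 2 control and 2 cKO libraries, 8 in all. In D1Tom the replicates numbered 1 were prepared as batch 1 and those numbered 2 as batch 2, and only cKO 2 was male. In GTE control 1, control 2 and cKO 1 were labelled male and cKO 2 female, and the preparation batches were treated as unknown. The number of mice behind a library is not given in the sources used here, so p-values rest on libraries. Between genotypes they measure the spread between libraries. Between cell types, where each library is a block, they measure how steady the difference within a library was from library to library.

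The D1Tom libraries held 2395 to 3206 cells and 27323298 to 36379194 counts each, and the GTE libraries 1440 to 3948 cells and 4878370 to 6092396 counts. Between 4 and 27 cell barcodes were shared by any pair of libraries of a sort. Levels are in CPM, counts scaled to a common total, of a library or of the summed cells of a type. They count reads at the 3' end and are not set against each other between genes. Log2 differences were fitted with a further scaling of each library or sum (TMM factors). A log2 difference can therefore depart from the ratio of the CPM beside it, and in sign where it is small. Foxp2, the targeted gene, was at 62.3 and 60.1 CPM in excitatory neuron-like cells of the D1Tom controls and at 11.6 and 21.8 in those of the cKO libraries. In GTE it was at 9.52 and 46.9 CPM in the libraries labelled control and at 25.4 and 7.43 in those labelled cKO, which overlap, so Foxp2 did not separate the GTE labels. In D1Tom 74 members had at least 100 counts in all, 8 had fewer, and Stx19 had 0. In GTE 65 had at least 100 and 19 had fewer.

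The promoters of 4 members are shown because the levels of these genes set cell types apart in the sections that follow. Synapsin 1 (Syn1) was higher in excitatory neuron-like cells than in astrocyte-like cells and in interneuron-like cells, Sv2b and Sv2c changed in opposite directions between excitatory and interneuron-like cells, and synaptoporin (Synpr) was higher in interneuron-like cells. Each is the 250 bases before an annotated start from RefSeq (build GRCm38.p6), 5′ to 3′ on the gene's strand, with capitals marking the motifs found on either strand. Syn1 lies on the minus strand at chrX:20920919-20921168, Sv2b (its most upstream start) on the minus strand at chr7:75309263-75309512, Sv2c on the minus strand at chr13:96132578-96132827 and Synpr (the first of its starts) on the plus strand at chr14:13284530-13284779.
Syn1: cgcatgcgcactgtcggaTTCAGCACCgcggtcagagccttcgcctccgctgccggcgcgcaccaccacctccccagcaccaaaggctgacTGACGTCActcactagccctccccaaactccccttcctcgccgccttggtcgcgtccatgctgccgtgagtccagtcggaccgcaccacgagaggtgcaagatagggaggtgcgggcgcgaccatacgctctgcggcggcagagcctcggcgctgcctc
Sv2b: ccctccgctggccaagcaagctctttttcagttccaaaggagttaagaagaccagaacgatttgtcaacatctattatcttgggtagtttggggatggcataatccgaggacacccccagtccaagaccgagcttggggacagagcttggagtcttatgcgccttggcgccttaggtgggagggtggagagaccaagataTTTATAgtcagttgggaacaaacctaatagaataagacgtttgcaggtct
Sv2c: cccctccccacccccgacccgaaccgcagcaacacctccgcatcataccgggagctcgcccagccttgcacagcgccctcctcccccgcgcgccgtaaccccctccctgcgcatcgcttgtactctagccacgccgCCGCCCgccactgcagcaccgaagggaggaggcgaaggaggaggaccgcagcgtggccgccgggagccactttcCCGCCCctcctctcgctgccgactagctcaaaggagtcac
Synpr: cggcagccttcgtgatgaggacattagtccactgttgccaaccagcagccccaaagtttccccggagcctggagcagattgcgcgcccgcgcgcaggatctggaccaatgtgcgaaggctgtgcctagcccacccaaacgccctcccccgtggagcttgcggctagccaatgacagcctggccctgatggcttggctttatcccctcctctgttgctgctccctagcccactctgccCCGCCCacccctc
In Syn1 the capitals are TTCAGCACC, the first part of the RE1 element to which the repressor REST binds, at base 19, and TGACGTCA, the cAMP response element, at base 92. In Sv2b they are a TATA box (TATAAA) read on the other strand at base 201. In Sv2c they are GC boxes (GGGCGG) on the other strand at bases 137 and 211, and in Synpr one such box at base 238.

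RefSeq promoters were matched for 68 of the 86 members, 88 promoters in all, and the same 250 bases of all 32851 promoters served as the comparison. GGGCGG was in 59.1% of the members' promoters and in 32.7% of all. TATAAA was in 6.82% and 12.4%, CACGTG (an E-box) in 10.2% and 6.02%, and TGACGTCA in 2.27% and 1.55%. TGACGTCA was in the promoters of Syn1 and Stxbp3 alone among the members. TTCAGCACC was in 1 of the members' promoters, that of Syn1, and in 0.301% of all, and GGACAGCGC, from the second part of the RE1 element, was in 0 of the members' and in 0.304% of all. Both strands were searched, and a match describes letters only.

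Cell types were rebuilt by clustering without the members, and were named from marker lists that hold no member. The members can still vary with the genes that formed the clusters, so a difference between types describes the cells so grouped. D1Tom gave 1831 excitatory neuron-like cells (layer 6 corticothalamic-like, layer 5 pyramidal tract-like, upper layer-like and other excitatory neuron-like), 951 interneuron-like cells, 1642 astrocyte-like cells and 1500 oligodendrocyte precursor-like cells. Medians ran from 16424.5 to 25619 counts per excitatory neuron-like cell in the 4 libraries, from 7158.5 to 13455 per interneuron-like cell and from 6244 to 9996 per astrocyte-like cell. The summed level of the members was 5121 to 6328 CPM over all D1Tom cells and 3480 to 3678 in astrocyte-like cells, and it was 7885 to 8645 in interneuron-like cells. The 3 ranges do not overlap.

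**Figure D1:**
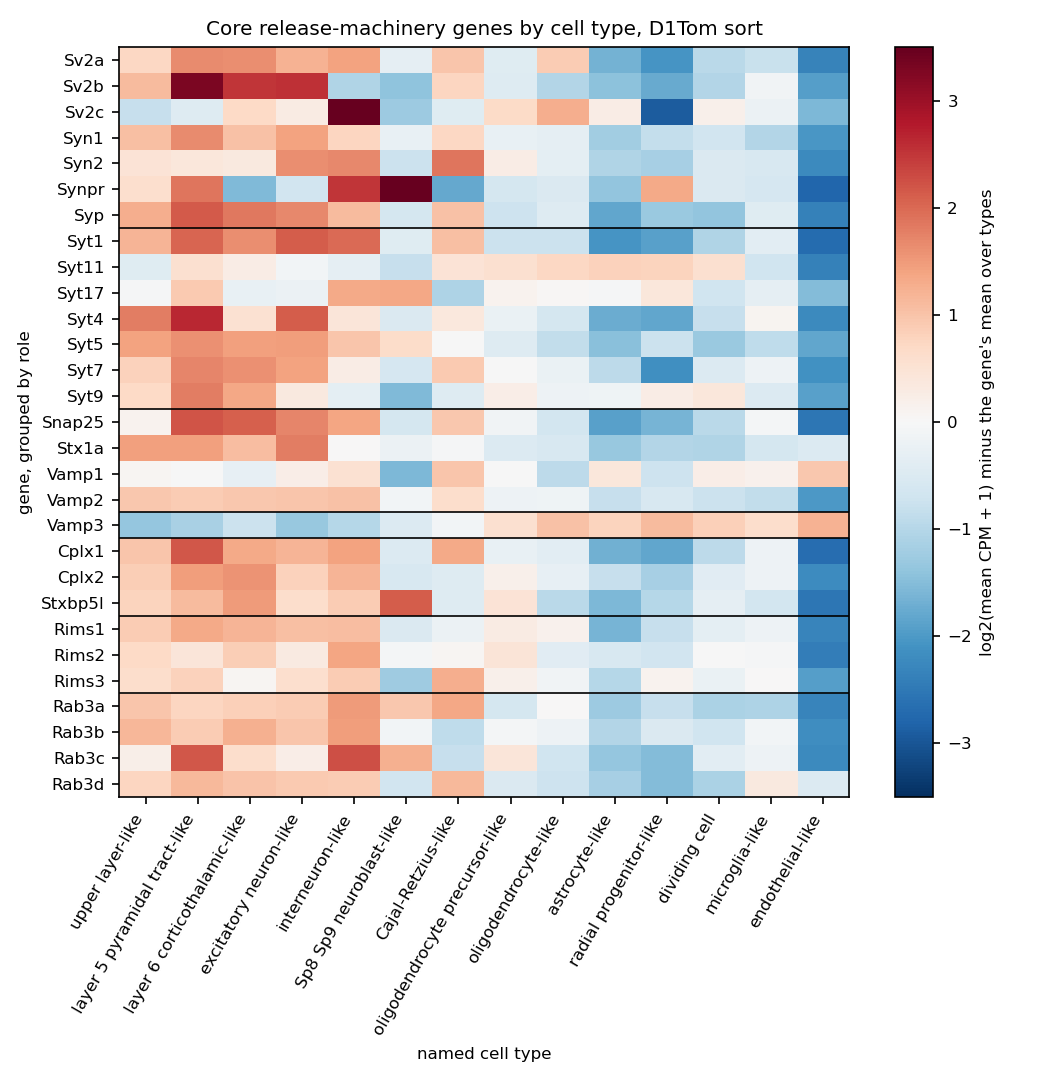
Heat map of core members (rows, by role) over named D1Tom cell types (columns), as log2(mean CPM + 1) minus the gene's mean over types, red above and blue below. Most rows are red in the neuron-like columns, Sv2b in layer 5 pyramidal tract-like cells, Sv2c in interneuron-like cells and Synpr in Sp8 Sp9 neuroblast-like cells stand out, and Vamp3 runs the other way.

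In D1Tom, the parts of the release machinery that act at the synapse were higher in excitatory neuron-like than in astrocyte-like cells, and members of general membrane traffic were often lower. Of the 74 members tested, 41 were higher and 20 lower with edgeR's quasi-likelihood test, with each library as a block and Benjamini-Hochberg adjustment over 12724 genes, and 13 did not pass. That is 82.4% called, beside 70.1% of all genes tested, of which 35.7% were higher and 34.4% lower. The median log2 difference of the members was 1.09, beside 0.01 over all genes. The panneuronal genes that measure neuron content (such as Tubb3 and Map2) were higher for 12 of 12, and 7 of 7 tested dissociation genes (such as Fos and Jun) were lower. Their part in the members' differences was not tested.

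Calcium sensors and fusion proteins were among the members far apart between these types. Syt1, the calcium sensor of fast release, was at 700, 755, 766 and 715 CPM in excitatory neuron-like cells of control 1, control 2, cKO 1 and cKO 2, and at 37.9, 60.1, 42.4 and 69.5 in astrocyte-like cells. Snap25, a SNARE of the plasma membrane, was at 587, 684, 711 and 838 CPM in the same order against 36.8, 74.3, 54.8 and 79.8. Every excitatory value lay far above every astrocyte value for both genes, and the replicates numbered 2 had the higher astrocyte values. The log2 differences were 3.80 ± 0.17 (SE) for Syt1 and 3.52 ± 0.15 for Snap25, with edgeR adjusted p of 2.44e-07 and 2.25e-07. Syt4, a synaptotagmin of dense-core vesicles, was at 459, 581, 622 and 500 CPM against 29.9, 48.9, 44.5 and 48.8, a log2 difference of 3.62 ± 0.13 (edgeR adjusted p = 2.17e-07). Its groups did not overlap either. Of the 15 synaptotagmins and synaptotagmin-like genes tested 11 were higher, among them Syt5 (3.05), Syt3 (2.99), Sytl2 (2.89), Syt16 (2.84), Syt13 (2.79), Syt14 (2.78), Syt7 (2.31), Syt10 (2.14) and Syt9 (1.43).

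The other synaptic SNAREs and their partners followed the same direction. Syntaxin 1a (Stx1a) was higher by 2.79 ± 0.15 and Vamp2, the main vesicle SNARE of cortical neurons, by 1.71 ± 0.11 on the log2 scale, while Vamp1 at 1.93 to 4.36 CPM against 2.24 to 7.26 did not pass (edgeR adjusted p = 0.205). Complexin 1 (Cplx1) was higher by 3.14 ± 0.20 and complexin 2 (Cplx2) by 2.00 ± 0.21. Cplx2 was also counted in astrocyte-like cells, at 89.9, 183, 100 and 161 CPM. Of the 9 SNARE partners 6 were higher, among them Stxbp5 and Stxbp5l, the tomosyns that hold syntaxin away from VAMP, by 1.86 and 3.01. Stxbp3, a Munc18 form of general secretion, was lower by -2.31 ± 0.22, and Stxbp4 by -0.73 ± 0.16.

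Active zone, Rab3 and vesicle genes were largely neuronal here. All 4 RIM genes in the D1Tom table were higher, with Rims1 at 109, 125, 107 and 125 CPM against 13, 18.3, 15.1 and 20.6, groups that do not overlap. Its log2 difference was 2.77 ± 0.13, beside 2.45 for Rims4, 1.56 for Rims3 and 1.13 for Rims2. Each of Rab3a, Rab3b, Rab3c and Rab3d was higher, by 2.13 to 2.35, and so was Rab3ip, which binds Rab3 and activates Rab8, by 0.66, whereas the related Rab3il1 was lower by -1.44 ± 0.26. Rab3gap1 and Rab3gap2, subunits of the enzyme that inactivates Rab3, did not pass, at 21 to 25.2 and 23.9 to 25.4 CPM in excitatory neuron-like cells against 20.6 to 28.8 and 19.8 to 25.4. Of 7 vesicle genes 6 were higher, and Sv2b had the largest positive difference of all members tested.

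Sv2b was at 122, 120, 141 and 137 CPM in excitatory neuron-like cells and at 4.82, 7.10, 8.78 and 11.7 in astrocyte-like cells, a log2 difference of 4.04 ± 0.18 (edgeR adjusted p = 2.46e-07). Synaptophysin (Syp), a major protein of the vesicle membrane, was at 222, 254, 267 and 338 CPM against 13.6, 28.0, 18.5 and 30 (3.58 ± 0.15). Neither gene's groups overlap. Sv2a was higher by 2.97, Syn1 by 2.48, Synpr by 1.92 and Syn2 by 1.86. Sv2c at 4.46 to 9.21 CPM against 3.53 to 14.2 did not pass (adjusted p = 0.743 by edgeR).

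Members lower in excitatory neuron-like cells belong mostly to traffic outside the synapse. Vamp8, an endosomal and lysosomal SNARE, was at 2.58, 5.17, 1.33 and 6.79 CPM against 36.6, 53.0, 47.5 and 39.0 in astrocyte-like cells, a log2 difference of -3.69 ± 0.31 (edgeR adjusted p = 4.21e-06). Vamp3, also called cellubrevin, was at 28.0, 24.7, 24.3 and 29.6 CPM against 112, 107, 118 and 77.1 (-2.02 ± 0.15). The groups do not overlap for either. Of the 15 other syntaxins and VAMPs tested 9 were lower, also Vamp5 (-3.91), Stx16 (-1.33), Stx4a (-1.20), Stx2 (-1.08), Vamp4 (-0.87), Stx5a (-0.81) and Stx8 (-0.47), and 3 were higher, Stx3 (3.00), Stx7 (1.04) and Stx12 (0.65). Of 11 Rab30 to Rab39 genes 5 were lower, Rab32 (-3.40), Rab38 (-2.85), Rab31 (-1.90), Rab34 (-1.52) and Rab30 (-0.90), and Rab39b (1.18) and Rab33a (0.49) were higher. Syt11, a synaptotagmin that lacks calcium binding, ran against its family at 350, 392, 384 and 392 CPM against 705, 627, 664 and 575, groups apart by a log2 difference of -0.81 ± 0.11 (edgeR adjusted p = 0.000113). Syt15 (-4.03) and Syt12 (-1.16), both under 5 CPM in astrocyte-like cells, were lower as well.

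Genes that work beside the members were also counted. Of 22 genes of the active zone scaffold and calcium channels (such as Bsn and Pclo) 19 were higher and 1 lower, and of 19 genes of SNARE recycling and further SNAREs 15 were higher and 2 lower. Of 27 endocytosis genes 21 were higher and 3 lower, and of 14 tested genes of vesicle filling 13 were higher, a list that includes the glutamate and GABA transporters which also mark the cell types.

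**Figure D2:**
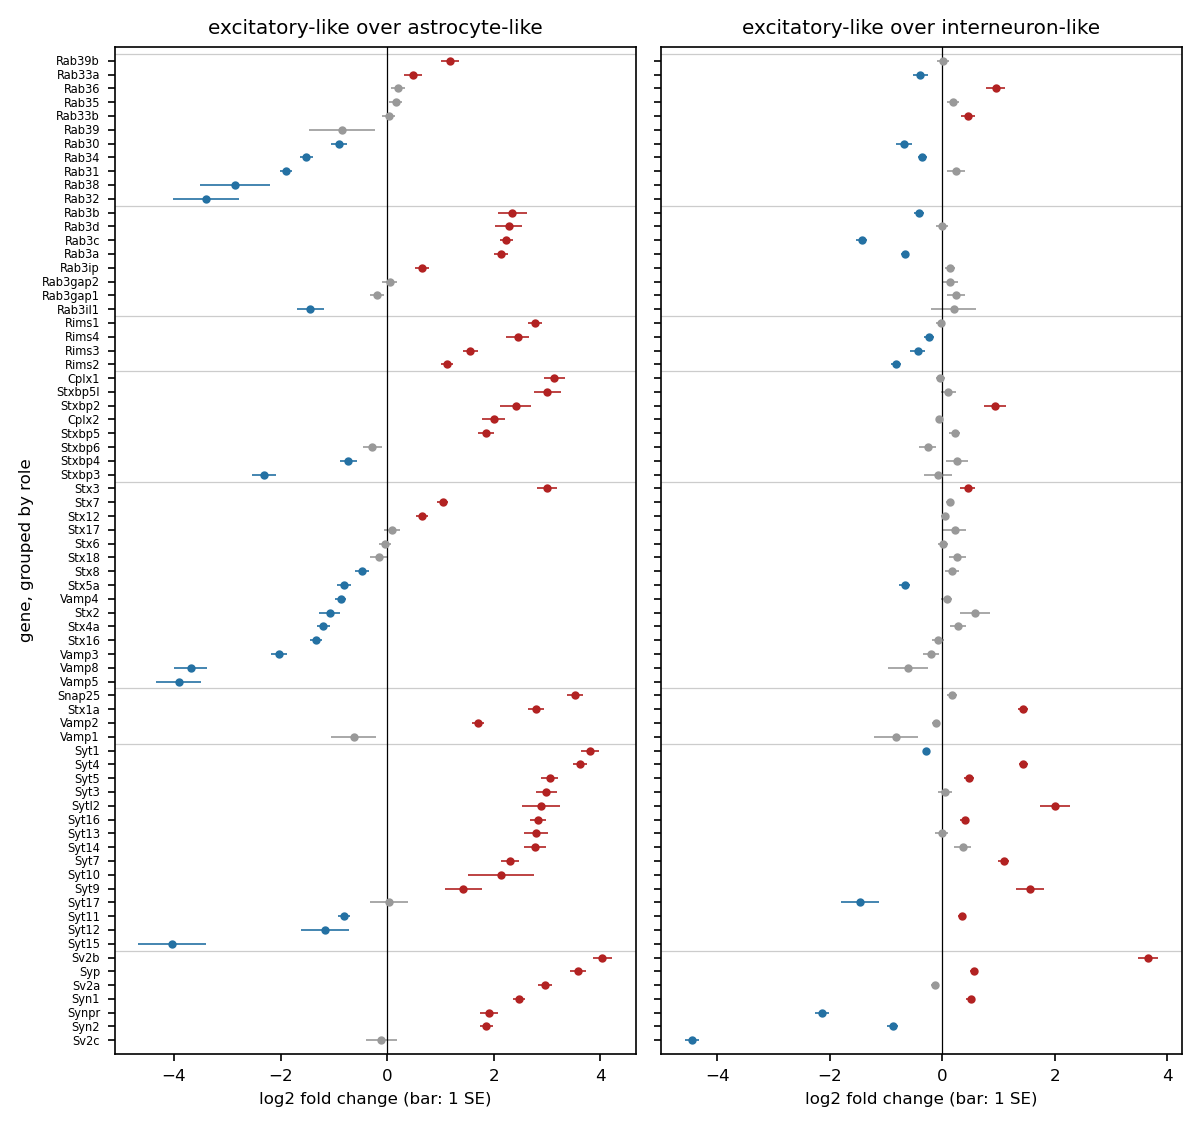
Log2 fold change of tested members, grouped by role, for excitatory-like over astrocyte-like cells (left) and over interneuron-like cells (right) of D1Tom, with bars of 1 standard error, red for higher and blue for lower at an edgeR adjusted p under 0.05 and grey for neither. On the left Sv2b reaches 4.04 and Syt15 -4.03, and on the right Sv2b (3.66) and Sv2c (-4.45) are the extremes.

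Between the neuron classes the members were called in both directions at rates near those of all genes. Several families held members that changed in opposite directions. Excitatory neuron-like cells of D1Tom were higher than interneuron-like cells for 17 of 68 tested members and lower for 15 (47.1% called), beside 40.7% of 11997 genes, 20.8% higher and 19.8% lower, in the same edgeR model. The median log2 difference was 0.10 for the members and -0.01 for all genes. The neuron content genes were higher for 5 and lower for 1 of 12. This comparison shares its excitatory neuron-like cells with the previous one.

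The SV2 family of vesicle glycoproteins split furthest. Sv2c was at 6.27, 8.32, 4.46 and 9.21 CPM in excitatory neuron-like cells and at 183, 139, 109 and 152 in interneuron-like cells. Sv2b was at 122, 120, 141 and 137 CPM and at 6.17, 15.5, 7.47 and 15. Sv2a was at 211, 206, 239 and 239 CPM and at 252, 221, 225 and 261. The groups were far apart in opposite directions for Sv2c and Sv2b, and overlapped for Sv2a. The log2 differences were -4.45 ± 0.13 for Sv2c (edgeR adjusted p = 1.01e-10), 3.66 ± 0.18 for Sv2b (adjusted p = 1.07e-08) and -0.13 for Sv2a (adjusted p = 0.17).

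**Figure D3:**
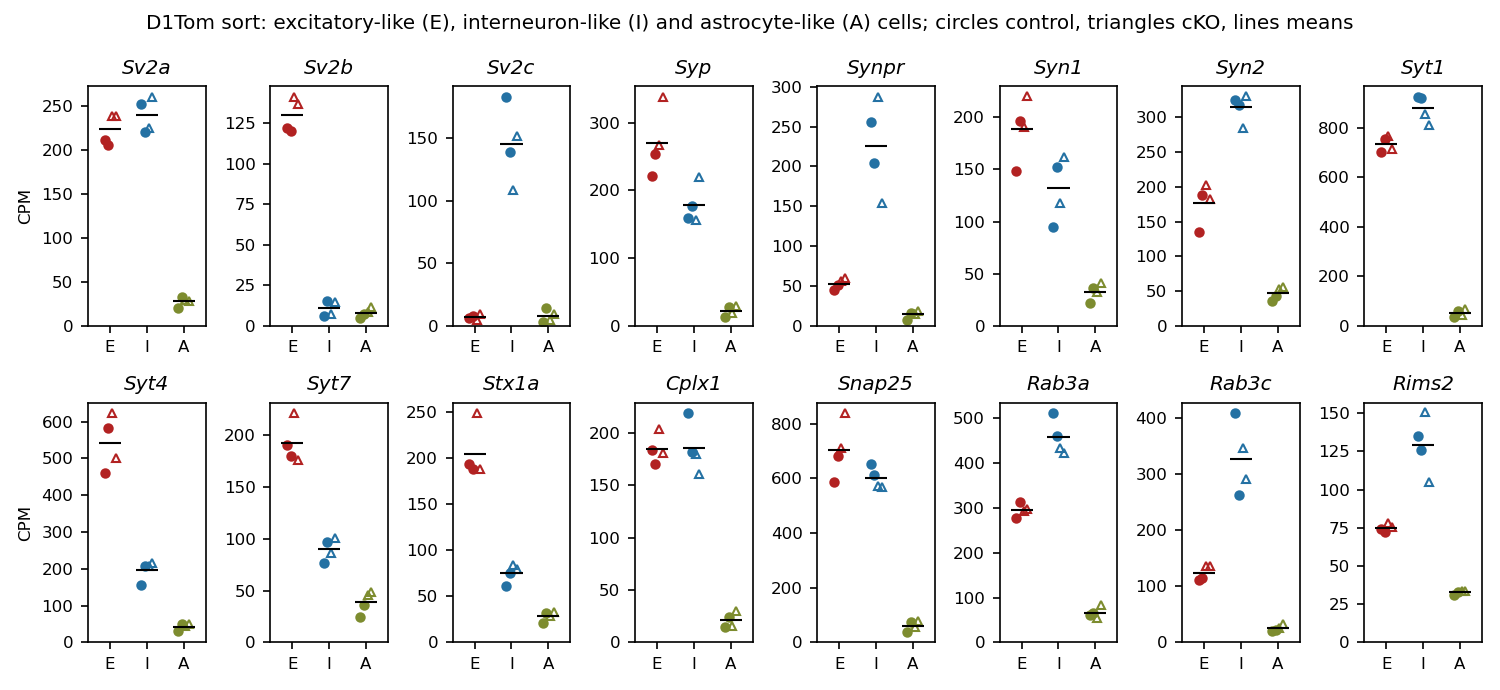
Level in CPM (linear axes) of 16 members in excitatory-like (E), interneuron-like (I) and astrocyte-like (A) cells of the 4 D1Tom libraries, with circles for control, triangles for cKO and lines for means. Sv2b and Sv2c separate the neuron classes in opposite directions, Synpr and Rab3c are higher in interneuron-like cells, and Snap25 and Syt1 set both neuron classes apart from astrocyte-like cells.

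Other vesicle proteins split as well. Synpr was at 45.4, 51.3, 55.9 and 59.9 CPM in excitatory neuron-like cells against 256, 205, 287 and 154 in interneuron-like cells, with no overlap and a log2 difference of -2.14 ± 0.13 (edgeR adjusted p = 6.66e-08). Syn2 was at 135, 188, 202 and 182 CPM against 325, 318, 285 and 330 (-0.88 ± 0.10), again without overlap. Syn1 went the other way, at 148, 196, 191 and 220 CPM against 94.9, 152, 118 and 162, a difference of 0.51 ± 0.08 (adjusted p = 0.000196). Its values overlapped between the classes, although excitatory was above interneuron in every library. Syp, a relative of Synpr, was higher by 0.56 ± 0.07.

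Of the Rab3 proteins, which hold vesicles near the active zone, 3 were lower in excitatory neuron-like cells. Rab3c was at 111, 115, 136 and 137 CPM against 409, 264, 347 and 291, groups apart by -1.43 ± 0.10 (edgeR adjusted p = 2.43e-07). Rab3a was at 278, 314, 293 and 298 CPM against 512, 461, 434 and 423 (-0.66 ± 0.07), and Rab3b differed by -0.42 ± 0.09. Of the RIM genes Rims2 was at 74.0, 72.5, 78.1 and 75.6 CPM against 135, 126, 151 and 105 (-0.83 ± 0.09), with Rims3 at -0.44 and Rims4 at -0.24. Rims1, at 107 to 125 CPM in excitatory neuron-like cells, differed by -0.03 and did not pass.

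Synaptotagmins and Stx1a tended to the excitatory side, with 7 of 13 tested synaptotagmin-family members higher and 2 lower. Stx1a was at 194, 188, 249 and 188 CPM against 61.1, 75.2, 83.5 and 80.0 in interneuron-like cells, a difference of 1.44 ± 0.09 (edgeR adjusted p = 6.97e-08). Syt4 was at 459, 581, 622 and 500 CPM against 157, 208, 207 and 217 (1.44 ± 0.08). Syt7, a slow, high-affinity calcium sensor, was at 191, 180, 222 and 176 CPM against 77.0, 96.6, 86.1 and 101 (1.09 ± 0.10). None of the 3 overlapped between classes. Sytl2 (2.00), Syt9 (1.56), Syt5 (0.48), Syt16 (0.40) and Syt11 (0.35) were also higher, and Syt17 (-1.46) and Syt1 (-0.29) lower.

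Several core genes of the fusion machine were not called between the neuron classes. Snap25 differed by 0.18 (adjusted p = 0.113 by edgeR), Vamp2 by -0.12 (0.11), Cplx1 by -0.04 (0.742) and Cplx2 by -0.06 (0.527). Stxbp2, a Munc18 form of other secretory cells, was higher by 0.94 ± 0.19. Of 14 other syntaxins and VAMPs, Stx3 (0.45) was higher, Stx5a (-0.67) lower and 12 did not pass, and of 8 Rab30 to Rab39 genes Rab36 (0.95) and Rab33b (0.46) were higher and Rab30 (-0.68), Rab33a (-0.39) and Rab34 (-0.36) lower. Among genes beside the members, 10 of 22 active zone scaffold and channel genes were higher and 5 lower, and 12 of 27 endocytosis genes higher and 6 lower.

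Within the excitatory neuron-like cells the levels also differed by layer type. These levels are means over libraries and were not tested. Sv2b was at 240 ± 9.44 CPM (SD, n = 4 libraries) in layer 5 pyramidal tract-like cells, 138 ± 1.85 in layer 6 corticothalamic-like cells, 144 ± 25.6 in the other excitatory neuron-like cells and 52.3 ± 7.71 in upper layer-like cells. The means of the middle pair of types lie within the spread, and the highest and lowest types stand clear of them. Syt4 was at 908 ± 123 CPM in layer 5 pyramidal tract-like cells and 213 ± 43.5 in layer 6 corticothalamic-like cells, and Snap25 was at 253 ± 90.2 in upper layer-like cells and 1062 ± 85.1 in layer 5 pyramidal tract-like cells. Vamp2, in contrast, was at 720 ± 48.6 to 759 ± 43.5 CPM over the 4 excitatory types, a range within their spread. Stxbp6, the SNARE-binding protein amisyn, was at 129 ± 38.8 CPM in layer 5 pyramidal tract-like cells and at 14.8 ± 9.22 to 27.5 ± 9.30 in the other 3, and Syt13 was at 68.3 ± 11.8 in layer 6 corticothalamic-like cells, of which 1 cluster was also led by Ctgf and Nxph4.

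Smaller neuron-like groups had profiles of their own. Synpr was at 895, 903 and 170 CPM in Sp8 Sp9 neuroblast-like cells of control 1, cKO 1 and cKO 2, the highest mean of any named type, with cKO 2 far below the others and control 2 left out for holding 3 such cells. Stxbp5l was at 49.7 ± 27.2 CPM there (n = 3). Syn2 was at 365 ± 46.4 CPM in Cajal-Retzius-like cells, next to 315 ± 20.2 in interneuron-like cells, which is within the spread. Rab3c was at 310 ± 30.4 CPM in layer 5 pyramidal tract-like cells, also within the spread of its 328 ± 64.0 in interneuron-like cells.

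Several members had their highest level outside neurons. Rab33a, a Golgi and vesicle GTPase, was at 304 ± 150 CPM (SD, n = 4) in oligodendrocyte-like cells and at 45.5 ± 19.0 in the next type, Sp8 Sp9 neuroblast-like cells, and in GTE it was at 268 ± 194 in oligodendrocyte-like cells. Vamp8 was at 249 ± 158 CPM in microglia-like cells and 148 ± 29.0 in endothelial-like cells, and Rab3il1 was at 100 ± 52.8 and Rab32, a Rab of lysosome-related organelles, at 56.5 ± 35.4 in microglia-like cells. In GTE microglia-like cells the same 3 genes were at 136 ± 24.4, 90.6 ± 25.9 and 65.9 ± 56.5 CPM. Vamp5 was at 95.7 ± 24.3 CPM in endothelial-like cells and 21.5 ± 17.2 in the next type. Rab34, a Rab of the Golgi and cilium, was at 222 ± 65.8 CPM and Rab31 at 174 ± 32.3 in astrocyte-like cells. These types held 104 to 280 D1Tom cells except for the astrocyte-like one, and their spreads are wide.

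Neuronal members were also counted in cells that should lack them. Snap25 was at 39.6 ± 23.9 CPM in endothelial-like cells, and at 69.9, 496, 119 and 196 CPM in microglia-like cells of control 1, control 2, cKO 1 and cKO 2. Syt1 was at 33.7 ± 19.7 and 172 ± 137 CPM in these types. The part of free RNA and of doublets in the levels of glial types was not tested.

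Oligodendrocyte precursor-like cells were compared with astrocyte-like cells because precursors receive synapses, a comparison chosen after the clusters were seen. Of 70 members tested 36 were higher and 10 lower in the precursor-like cells (65.7% called), beside 43.0% of 11980 genes, 23.0% higher and 20.0% lower, by edgeR. The median was 0.60, beside 0.03 for all genes. Neuron content genes were higher for 12 of 12, at a summed 2701, 5894, 3524 and 5475 CPM in precursor-like against 1095, 1889, 1543 and 2336 in astrocyte-like cells, and 5 of 7 tested dissociation genes were lower and 1 higher. The summed dissociation genes were at 2090, 291, 535 and 262 CPM in precursor-like against 3997, 708, 602 and 412 in astrocyte-like cells, with control 1 high in both. The part of either list in the result was not tested.

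Several members stood clear of the astrocyte-like values. Syt16, a calcium-independent synaptotagmin, was at 108, 98.5, 131 and 89.7 CPM in precursor-like cells against 15.4, 23.2, 19.1 and 20.6, a log2 difference of 2.41 ± 0.14 (edgeR adjusted p = 3.57e-06). Rab3c was at 78.8, 87.1, 93.4 and 103 CPM against 20.4, 22.4, 26.6 and 33.6 (1.78 ± 0.12). Stxbp5l was at 22.2, 15.1, 16.1 and 8.56 CPM against 1.61, 3.74, 3.63 and 2.69 (2.43 ± 0.34). None of the 3 overlapped. The neuron content genes were highest in the precursor-like cells of the replicates numbered 2, and so were Syt1 and Syp. Syt1 was at 56.3, 221, 106 and 137 CPM and Syp at 23.7, 77.1, 39.4 and 58.1 in precursor-like cells, with differences of 1.16 ± 0.21 and 1.05 ± 0.16 and values that overlap those of astrocyte-like cells. Rims1 (1.90), Snap25 (1.80) and Syt13 (1.78) were higher too, and Vamp8 (-2.49), Vamp5 (-2.31) and Rab3il1 (-1.18) were lower. Of genes beside the members, 18 of 22 in the active zone list were higher and 1 lower.

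GTE had few cells that could be named as neurons: 34 were excitatory neuron-like, from control 2 and cKO 1 alone, so the planned comparison was not run there. Its largest cluster, cluster 0, held 3751 cells with a median of 1746 counts, led by Doc2b, Prdm8 and Met. In it 8 of 9 excitatory markers were above 1-fold, with a median of 1.64-fold, too low for a name. Interneuron markers were close to that, with 6 of 9 of the medial list (median 1.55-fold) and 6 of 10 of the caudal list (1.35-fold) above 1-fold. After the clusters were seen, it was compared with 1762 astrocyte-like GTE cells. Of 62 members tested 27 were higher and 6 lower (53.2% called), beside 37.0% of all genes, 19.4% higher and 17.7% lower, with each library as a block in edgeR. Without the block 3 members were called. Neuron content genes were higher for 12 of 12, with a median of 1.43 beside 0.66 for the members, and 4 of 5 tested dissociation genes were lower. Their part in the result was not tested. The summed level of the members was 3985 ± 559 CPM (SD over libraries) in cluster 0. Over the other GTE types with enough cells it ran from 3234 ± 485 in cluster 1 to 4024 ± 311 in precursor-like cells, with 3480 ± 461 in astrocyte-like cells. Cluster 0 was thus not set apart from all other GTE types by this sum.

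Snap25 was at 171, 412, 216 and 206 CPM in cluster 0 of the libraries labelled control 1, control 2, cKO 1 and cKO 2 against 76.7, 187, 73.6 and 90.4 in astrocyte-like cells, a log2 difference of 1.58 ± 0.17 (edgeR adjusted p = 8.85e-07). The groups overlap, with control 2 high in both types, and cluster 0 was higher in each library. Unc13a, the main Munc13 priming factor of excitatory synapses, was at 31.4, 44.5, 19.8 and 45.9 CPM against 15.8, 26.8, 6.29 and 11 (1.64 ± 0.32), higher in each library with overlap between groups. Unc13c was at 121, 165, 114 and 158 CPM against 97.0, 150, 62.3 and 115 (0.76 ± 0.18 with TMM factors, more than these CPM alone give). Syt13 (1.93), Syt4 (1.80), Rims4 (1.77) and Rab3c (1.73) were higher as well. Rab34 was at 19.1, 7.81, 138 and 13.9 CPM against 115, 136, 264 and 194 (-2.38 ± 0.31), with cKO 1 far above the other libraries in cluster 0. Syt11 was lower by -0.92 ± 0.19.

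Among members tested in both sorts, those called in GTE were called in D1Tom as well. Of 59 members tested in both sorts 50 were called in D1Tom and 31 in GTE. Called in both were 31, which is 62.0% of the D1Tom calls and 100.0% of the GTE calls among these 59. The D1Tom comparison called 70.1% of all 12724 genes it tested, and the GTE one 37.0% of 10246. Whether the overlap of the members exceeds what these rates give was not tested. Unc13a and Unc13c, called in GTE, were not analysed in D1Tom. All 31 had the same direction, beside 92.6% of 3101 genes called in both among 10026 tested in both. The cell groups compared differ between the sorts, so the sizes are not set against each other.

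**Figure D4:**
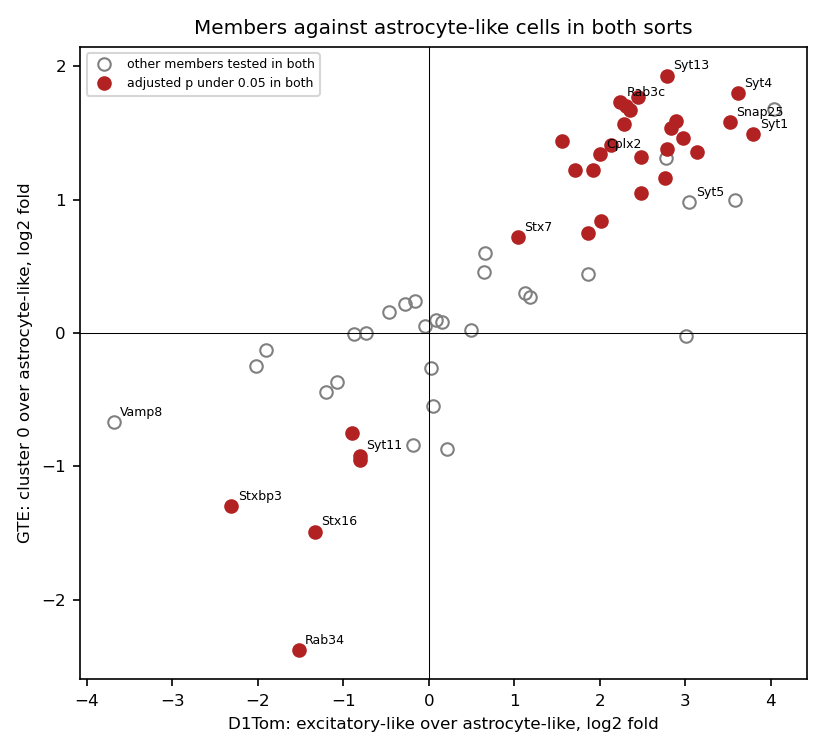
Log2 fold of members tested in both sorts, excitatory-like over astrocyte-like cells in D1Tom (x axis) and cluster 0 over astrocyte-like cells in GTE (y axis), with filled points for members called in both. The 31 filled points lie in the quadrants of equal sign.

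Between genotypes, no member was called in either sort over all cells. In D1Tom 0 of 80 tested members passed with edgeR (0.0% of 14508 genes passed) and 0 with DESeq2, and 1 had an unadjusted p under 0.05, beside 2.21% of genes. The median log2 difference of cKO over control was -0.06, beside -0.01 over all genes. In CPM, both cKO values lay below both controls for 20 of the 80 members tested, beside 13.7% of genes tested. They lay above for 8 of the 80, beside 9.7%. The summed member level was 6328 and 6269 CPM in the controls and 6195 and 5121 in cKO 1 and cKO 2, and the summed neuron content was 5986 and 7013 against 5785 and 5852. Dissociation genes summed to 1280 CPM in control 1 alone and to 218 to 252 in the other 3 libraries, and their part in these values was not tested. Excitatory neuron-like cells numbered 628 of 3206 and 616 of 2395 cells in the controls. In cKO 1 and cKO 2 they numbered 333 of 2812 and 254 of 3081. A fall in a member's level over all cells cannot be told apart from fewer cells that express it.

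The single D1Tom member under an unadjusted 0.05 was Rab3d, at 26.7 and 24.3 CPM in controls against 20.4 and 17.6 in cKO libraries. The groups do not overlap, and its log2 difference of -0.36 ± 0.14 had an edgeR adjusted p of 0.998. Stxbp6 was at 31.7 and 33.3 CPM against 41.9 and 37.1 (0.34 ± 0.14), and Sv2c at 24.5 and 17.2 against 16.1 and 13.7 (-0.41 ± 0.19), neither passing. Syt1 was at 454 and 476 CPM against 422 and 283, with only cKO 2 far from the controls. Snap25 was at 371 and 411 CPM against 365 and 321, and Vamp2 at 539 and 471 against 514 and 440, which overlap.

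In GTE 0 of 72 tested members passed with edgeR, beside 0.0332% of 12042 genes, and 0 with DESeq2, while 7 had an unadjusted p under 0.05, beside 5.22% of genes. The median was -0.44, beside -0.05, with TMM factors. The summed member level was 3273 and 4661 CPM in the controls and 3734 and 3510 in cKO 1 and cKO 2. Those sums overlap between the labels. In CPM, both libraries labelled cKO lay below both controls for 12 of the 72 members, beside 6.67% of genes, and above for 9, beside 19.6%. Order in CPM and fitted direction can differ. Among the members above, Rab35, Rab3ip and Vamp8 had log2 differences of -0.23, -0.1 and -0.01 with the TMM factors of the fit. Stx1a was at 69.4 and 59.4 CPM in controls against 23.7 and 43.3 (-1.23 ± 0.54, edgeR adjusted p = 0.896), and Stx3 at 5.91 and 12.9 against 4.93 and 3.01 (-1.61 ± 0.64, adjusted p = 0.845). Their groups do not overlap. Snap25 was at 147 and 428 CPM against 163 and 152, where control 2 stood alone. In cKO 1 the neuron content was 2139 CPM, against 4014 to 4741 in the other 3 GTE libraries, and the summed astrocyte markers were 10828 against 4790 to 6530. Their part in these differences was not tested.

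Sv2b in GTE rested on 1 library. It had 5 counts in control 1 and 105 in control 2 (0.821 and 21.5 CPM), and 0 in cKO 1 and cKO 2, which allows up to 3 counts, or 0.592 and 0.53 CPM, by counting error only. It was below the filter on low counts, and it was called with no filter and when control 1, cKO 1 or cKO 2 was left out (edgeR), but not without control 2. In D1Tom Sv2b was at 62.3 and 60.7 CPM in controls and 57.3 and 40.0 in cKO libraries and was not called. The difference of genotype effects between the sorts was tested for 78 members in 1 edgeR model over all 8 libraries. It called 0 (0.0% of genes), and 3 had an unadjusted p under 0.05, beside 3.22% of genes.

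**Figure D5:**
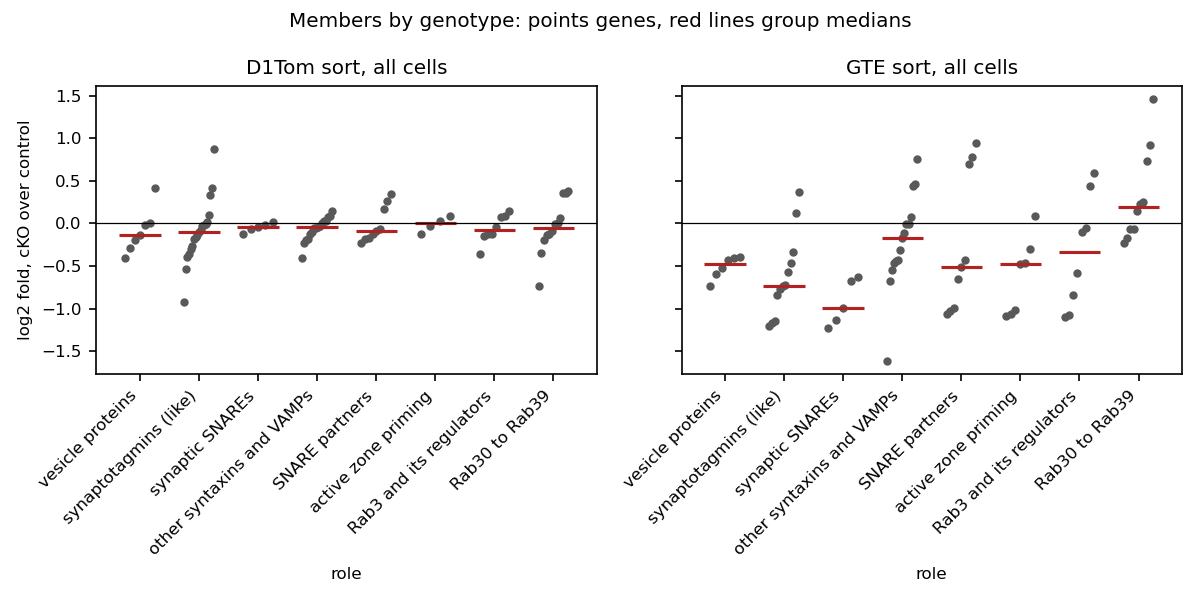
Log2 fold of cKO over control over all cells for each tested member, by role, in D1Tom (left) and GTE (right), with points for genes and red lines for the group medians. No member passed edgeR's adjusted threshold in either sort, and the median over the members is -0.06 in D1Tom and -0.44 in GTE.

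Within cell types no member was called between genotypes. Over 13 D1Tom types 0 of 836 tests of members passed with edgeR, beside 0.00514% of tests over all genes, and 2.27% had an unadjusted p under 0.05, beside 2.07%. Over 7 GTE types 0 of 279 passed, beside 0.0287%, and 6.09% were under 0.05 unadjusted, beside 3.39%. DESeq2 called 0 in both. The median difference lay between -0.05 and 0.09 in the D1Tom types and between -0.68 and 0.30 in the GTE types.

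Members with an unadjusted p under 0.05 in D1Tom types are given as values. In layer 5 pyramidal tract-like cells Rab3d was at 47.1 and 56.5 CPM in controls against 32.8 and 26.9 in cKO libraries (-0.80 ± 0.25). In layer 6 corticothalamic-like cells Rab3c was at 83.2 and 79.0 CPM against 140 and 112 (0.62 ± 0.19). In upper layer-like cells Rab31 was at 48.3 and 45.3 CPM against 69.6 and 71.2 (0.55 ± 0.17). The libraries did not overlap in these 3 cases and none passed adjustment. Synpr was among them in 4 types, with cKO above both controls each time, for example at 51.3 and 46.1 against 66.3 and 72.3 CPM in upper layer-like cells (0.46 ± 0.17), and it did not pass in any. Sp8 Sp9 neuroblast-like cells, the named type with the highest mean Synpr, numbered 23 and 3 in the controls against 110 and 71 in cKO 1 and cKO 2. The part of their free RNA or of doublets with them in these Synpr values was not tested.

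Leaving out a library changed 2 of these zero counts. Without D1Tom control 2, 20 calls of members appeared over the D1Tom types, 17 higher and 3 lower in cKO, all in cluster 0 except that of Rab3b in astrocyte-like cells, a gene called in both. Cluster 0 was led by Slc7a11, Fgfr3 and Gja1, and its control 1 library had a neuron content of 2826 CPM against 4320 to 5980 in the other 3. The summed dissociation genes were at 2845 CPM in that library, the lone control in this fit, against 213 to 279 in the other 3. Without GTE cKO 2, 15 calls appeared over the GTE types, in clusters 0, 1 and 4. In those clusters cKO 1, the library then standing alone, had a neuron content of 2237 to 3531 CPM against 3813 to 5645 in the others, and summed dissociation genes of 206 to 333 CPM against 0 to 91.3. The part of neuron content and of dissociation genes was not tested. Without GTE control 2 there were 2 calls, Cplx2 and Rab30 in dividing cells.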

How the data were processed

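The authors deposited whole-number counts of every gene in every cell, 1 table a sort, and a table of cells that holds a fraction of mitochondrial counts per cell (deposited, not used here). The submitters' processing notes name bcl2fastq 2.17.1.14, Cell Ranger 2.1.1, FastQC 0.11.5, UMI-tools 0.5.4, STAR 2.5.2b, featureCounts (Subread 1.6.2) and SAMtools 1.6, with builds mm10 and GRCm38.p6, and give no parameters. Values of 2 were 0.307 to 1.689 times as frequent as values of 1 across libraries, so a count may not equal 1 molecule. No Poisson intervals are given, and the limit on a count of 0 covers counting error only.

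Members and gene lists were chosen with earlier results of these data known. Cells with at least 500 counts were kept, which left out 143 GTE cells. They were clustered within each sort on 2000 variable genes without the members, with 30 principal components, 20 neighbours and the Leiden method at resolution 1 (leidenalg 0.10.2, scikit-learn 1.9.0, Python 3.11.15). A cluster was called X-like when at least 3 markers of a list and their median reached 2-fold and no other list had more genes among the cluster's top 10 by fold. A cluster with a median count far below that of its sort also needed a gene of the list among its top 10. All cells were kept, and leaving out the cells with the highest doublet scores was an alternative.

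Counts were summed per library and type and tested with edgeR 4.0.16 in R 4.3.3 (quasi-likelihood, TMM, filterByExpr, Benjamini-Hochberg over all genes at 0.05), never over cells. DESeq2 1.42.0 and other settings were alternatives. Genotype was fitted 2 libraries against 2, and classes with the library as a block. D1Tom replicate numbers share a batch, and same-numbered libraries deviated together (correlation 0.5 over 14508 genes). The text names core synaptic members from a list, members with an adjusted p under 0.05, up to 3 members with the highest ratio per type, and members nearest the threshold between genotypes. Steps were tested on simulated data. Results of some members are not reported here.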

Additional observations from a re-analysis of the deposited data

How the results depend on the processing

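Between genotypes over all cells, 0 D1Tom members were called in every alternative run (DESeq2, RLE factors, no filter, replicate block, neuron-like cells only, each library left out), and 0 for the interaction. In GTE the count was 1 with no filter on low counts and 0 to 1 when a library was left out, each time Sv2b. Per type the counts were 0 to 20 in D1Tom and 0 to 15 in GTE when a library was left out, and 1 with no filter in GTE (Sv2b in cluster 0). The replicate block changed no genotype count: 0 in D1Tom, 0 in GTE and 0 for the interaction. GTE numbers had a correlation of -0.348 between same-numbered libraries, and the crossed pairing, added after the data were seen, also called 0.

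Excitatory over astrocyte-like cells gave 57 to 61 calls when a library was left out and 59 to 63 otherwise, and excitatory over interneuron-like cells 28 to 31 and 26 to 33. Precursor over astrocyte-like cells gave 42 to 43, and 36 without the library as a block. GTE cluster 0 over astrocyte-like cells gave 27 to 35, and 3 without the library as a block. No call reversed its direction in any of these. Where a library left out leaves 1 in its group, that library is assumed to vary like the others. The GTE excitatory comparison and GTE neuron-like cells alone were not run, since control 1 held 0 such cells. Of the 54 named levels available at a finer clustering (resolution 2), 48 stayed within 1 SD, and 56 of 57 did without the highest doublet scores.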

Other observations

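D1Tom clusters that no marker list named also carried release genes at high levels. Cluster 21, with 144 cells and a median of 2724 counts per cell, had enough cells for a level in control 1, cKO 1 and cKO 2. On the marker list closest to it 5 of 7 genes reached 2-fold (median 4.586-fold), but none was among its top 10. On the excitatory list 3 of 9 were above 1-fold (median 0.65-fold). Trh, which led the cluster, is on the list for layer 6b or subplate neurons, counted here with the excitatory types. Syp was at 538, 424 and 582 CPM there, Sv2a at 538, 518 and 329, Stxbp5l at 150, 229 and 177, Stx3 at 184, 101 and 152, and Syt7 at 509, 330 and 354. Vamp2 was at 224, 249 and 278 CPM in the same cells, against 720 to 787 over the interneuron-like and the 4 excitatory types. These values were not tested.

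Cluster 4 of D1Tom held 902 cells with a median of 3106.5 counts, led by Pfkp, Adam11 and Slc18a2. Syt4 was at 1016 ± 106 CPM (SD, n = 4 libraries) in it, Syt5 at 270 ± 106, Syp at 493 ± 75.9 and Vamp2 at 266 ± 29.4. In GTE, cluster 10 held 81 cells, with enough for a level in control 2 and cKO 1. Unc13a was at 131 and 277 CPM there, Unc13b at 310 and 104, Syt7 at 538 and 312, and Syt1 at 734 and 659.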
